A study of Rattus norvegicus with 8 samples.

Results

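Slc47a1, Slc6a13, Ptgds and Aldh1a2 are genes of membrane transport, prostaglandin synthesis and retinoid synthesis that are used as markers of meningeal fibroblasts and of the arachnoid barrier. They were taken by symbol from 2 deposited tables of dorsal root ganglion RNA, and all 4 were found among the 4351 genes that stand in at least 1 of them. The table of imiquimod against untreated ganglia held 3 of them (Slc47a1, Slc6a13 and Aldh1a2) among 4136 genes, and the table of lidocaine against imiquimod held all 4 among 775. Both tables list genes whose group means differ by at least 1.00 on the log2 scale, so a gene that is missing from one has no level there, and each share of genes called below is read against a table made of called genes.

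The study sequenced RNA of dorsal root ganglia, the clusters of sensory neuron cell bodies beside the spinal cord, from Sprague Dawley rats of 250 g housed under specific-pathogen-free conditions. WT rats received no treatment (n = 3). IMQ rats had imiquimod, a Toll-like receptor 7 agonist used to provoke psoriasis-like skin inflammation, put on the back for 6 days (n = 3). Lidocaine rats had the same 6 days of imiquimod and, starting on day 3, also 4 days of epidural 1% lidocaine, a sodium channel blocker (n = 2). All ganglia were taken on day 7. The labels describe neither a vehicle on the skin of WT rats nor an epidural injection without drug, and they do not say whether samples of a group came from separate animals, so each p-value here measures only how these samples spread, which may be technical.

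The meninges are the membranes that wrap the brain, the spinal cord and the nerve roots, and they continue onto the capsule of the dorsal root ganglion. Their barrier layer is known for transporters that clear organic ions and transmitters from cerebrospinal fluid, and their fibroblasts are a known source of retinoic acid, which is made from vitamin A and acts on nuclear receptors. Retinol is oxidised to retinaldehyde, and retinaldehyde dehydrogenases such as Aldh1a2 turn it into retinoic acid. In bulk tissue, fewer cells of a type and less RNA per cell cannot be told apart. The ganglion label was checked against 21 sensory neuron markers. Of these, 6 were listed for IMQ against WT, 1 called higher and 5 lower (median -1.07), beside 58.9% and 37.0% of the table. Their summed normalized counts were 554039 to 1064540 in WT and 345339 to 357963 in IMQ. For lidocaine against IMQ 0 of the 21 were listed, so the lidocaine libraries were not checked. Relative depth, a scale recovered from the normalization and set against the mean of the 8 libraries, was 1.09 to 1.34 in WT, 0.808 to 0.912 in IMQ and 0.789 to 0.873 in lidocaine. It was highest in WT but is not a count of all reads. WT replicate 1 (1.34) had 6.25e+06 reads of genes listed for IMQ against WT, and WT replicate 3 (1.09) had 9.04e+06. The 4 genes were read 85 to 14113 times per library. The lowest of these counts, 85 reads of Slc47a1 in lidocaine replicate 1, has an exact 95% Poisson interval of 67.9 to 105, which covers counting error only.

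**Figure D1:**
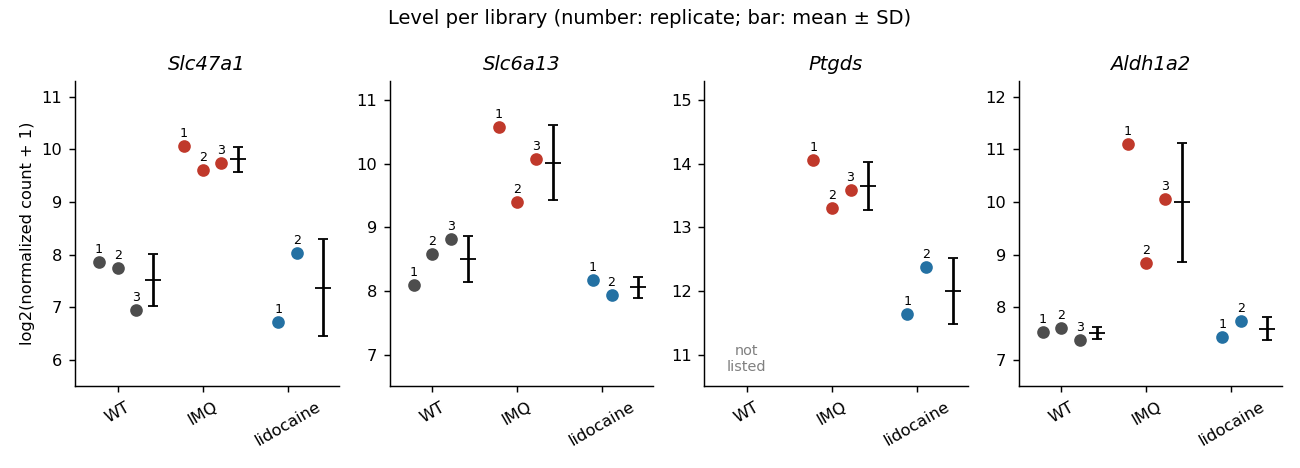
Level of each gene in each library as log2(normalized count + 1), by group, with the replicate number beside each point and the group mean ± SD as a bar. Slc47a1, Slc6a13 and Aldh1a2 were higher in each IMQ library than in any WT or lidocaine library, and Ptgds was higher in each IMQ library than in either lidocaine library and has no listed WT value.

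Levels are log2(normalized count + 1), given in replicate order, and each difference subtracts 1 group's mean of these values from the other's. Slc47a1 (ENSRNOG00000057404) encodes MATE1, which exports organic cations in exchange for protons. Its level was 7.87, 7.75 and 6.95 in the WT libraries, 10.07, 9.62 and 9.75 in the IMQ libraries, and 6.72 and 8.03 in the lidocaine libraries. The IMQ libraries stood close together and clear of both other groups, while WT replicate 3 and lidocaine replicate 1 were the low libraries. Slc47a1 rose 4.89-fold with imiquimod, a difference of 2.29 (SE 0.33, limma adjusted p = 0.00142, n = 3 and 3). It fell 5.42-fold when lidocaine was added, from 9.81 ± 0.23 to 7.38 ± 0.92 (SD, n = 3 and 2), a difference of -2.44 (SE 0.40, limma adjusted p = 0.00452). Both calls held with any 1 library left out. The lidocaine difference was -3.09 without lidocaine replicate 2 and -1.79 without lidocaine replicate 1.

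Slc6a13 (ENSRNOG00000012876) encodes GAT-2, a sodium- and chloride-dependent transporter of GABA and taurine. Its level was 8.10, 8.59 and 8.82 in WT, 10.58, 9.40 and 10.07 in IMQ, and 8.18 and 7.94 in lidocaine. The groups WT and lidocaine overlapped, and the lowest IMQ library was 0.59 above the highest WT library. Slc6a13 rose 2.86-fold with imiquimod (1.52, SE 0.37, limma adjusted p = 0.00928) and fell 3.88-fold with lidocaine (-1.96, SE 0.36, limma adjusted p = 0.00541). Without lidocaine replicate 2 the second difference was -1.84 and missed the threshold (limma adjusted p = 0.0505).

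Aldh1a2 (ENSRNOG00000055049), a retinaldehyde dehydrogenase, spread more among the IMQ libraries (SD 1.13) than the other members did, and little in WT (SD 0.12) and lidocaine (SD 0.22). Its level was 7.53, 7.62 and 7.38 in WT, 11.10, 8.84 and 10.05 in IMQ, and 7.44 and 7.75 in lidocaine. IMQ replicate 1 held 4.81 times the normalized count of IMQ replicate 2, 2201 against 458, and both exceeded the 166 to 195 of the WT libraries. Aldh1a2 rose 5.61-fold with imiquimod (2.49, SE 0.54, limma adjusted p = 0.00614) and fell 5.30-fold with lidocaine (-2.41, SE 0.61, limma adjusted p = 0.0119). Without lidocaine replicate 1 the second difference was -2.25 (limma adjusted p = 0.122), and without lidocaine replicate 2 it was -2.56 (limma adjusted p = 0.0885), so that call needed both libraries. The rise with imiquimod passed with any 1 library left out, at 1.94 to 3.07.

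Ptgds (ENSRNOG00000015550) encodes lipocalin-type prostaglandin D synthase, a secreted enzyme that makes prostaglandin D2 and also binds retinoids. Its level was 14.05, 13.31 and 13.59 in IMQ and 11.64 and 12.37 in lidocaine, or 10142 to 16997 and 3180 to 5300 normalized counts. The groups did not overlap, and the nearest libraries were 0.94 apart on the log2 scale. Ptgds fell 3.13-fold with lidocaine, a difference of -1.65 (95% confidence interval -2.55 to -0.74, SE 0.38, n = 3 and 2, limma adjusted p = 0.00905). Without lidocaine replicate 1 the difference was -1.28 (limma adjusted p = 0.0671). Its level in WT was not analysed here.

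The start regions of Aldh1a2 and Ptgds are shown because no window was available for the other members. Whether these sequences bear on the changes was not tested. RefSeq's promoter table (build GRCr8) held a window for 2 of the 4 genes, from 250 bases before to 50 after the gene start. The Aldh1a2 window is chr8:80758391-80758690 on the plus strand and the Ptgds window is chr3:28682929-28683228 on the minus strand. Both are written 5′ to 3′ along the gene, with each CG pair in capitals.
Aldh1a2: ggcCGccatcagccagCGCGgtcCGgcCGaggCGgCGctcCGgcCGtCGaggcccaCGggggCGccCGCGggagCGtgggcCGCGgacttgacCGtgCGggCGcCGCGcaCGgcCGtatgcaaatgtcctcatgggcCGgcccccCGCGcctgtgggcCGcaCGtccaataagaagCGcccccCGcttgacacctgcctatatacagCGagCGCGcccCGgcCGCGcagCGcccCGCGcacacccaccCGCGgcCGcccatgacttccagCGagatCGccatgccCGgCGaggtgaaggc
Ptgds: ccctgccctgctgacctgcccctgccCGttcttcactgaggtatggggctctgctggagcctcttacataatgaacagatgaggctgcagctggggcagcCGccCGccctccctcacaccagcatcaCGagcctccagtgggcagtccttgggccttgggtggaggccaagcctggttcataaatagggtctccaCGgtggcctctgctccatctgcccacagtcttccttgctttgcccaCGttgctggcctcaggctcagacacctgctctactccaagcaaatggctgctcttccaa
The Aldh1a2 window held 47 CG pairs and 76.0% G or C, and 98.7% of the 33469 windows in the table held fewer CG pairs. The Ptgds window held 6 CG pairs and 60.7% G or C, and the median of the table was 7 pairs and 51.7%. On both strands, Aldh1a2 held CCAAT at position -85 from the start, a word present in 37.5% of all windows, and TATATA at position -52, present in 6.15%. Ptgds held neither, and TATAAA (14.2% of windows) was in neither window. AGGTCA, the half-site bound by retinoid receptors, was at position -239 in Ptgds and was not in the Aldh1a2 window, against 16.2% of all windows. The steroid receptor half-site TGTTCT (20.7%) was in neither. GGGCGG (33.1%) occurred 2 times, overlapping, in Ptgds and 1 time in Aldh1a2, and the E-box CANNTG (72.1%) occurred 5 times in Ptgds and 2 times in Aldh1a2. These are matches of letters and show no binding.

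These calls are close to what the tables hold as a whole. For IMQ against WT, 3 of 3 members listed passed in the higher direction, as did 58.9% of all genes in that table, with 37.0% lower and 95.9% in either direction. The IMQ libraries stood wholly above the WT libraries for 3 of 3, beside 57.0% of the table. For lidocaine against IMQ, 4 of 4 passed in the lower direction, beside 87.1% of the table, with 7.48% higher and 94.6% in either direction. The lidocaine libraries stood wholly below the IMQ libraries for 4 of 4, beside 89.2% of the table. By size, the members' rises of 1.52 to 2.49 stood beside a median of 1.89 over the 2528 higher genes, and their lidocaine differences of -2.44 to -1.65 beside a median of -1.52 over the 702 lower genes. Slc47a1 ranked at place 140 and Aldh1a2 at place 142 of those 702 by size. The 2 comparisons share the IMQ libraries, so the same IMQ means enter both.

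**Figure D2:**
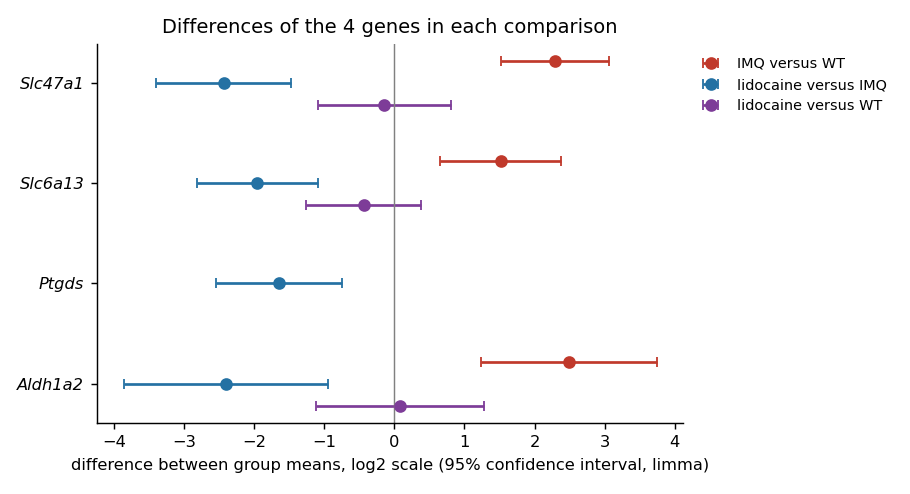
Difference between group means on the log2 scale for each gene (points) with limma's 95% confidence interval (bars), in 3 comparisons. The intervals of imiquimod against WT lie above 0, those of lidocaine against imiquimod lie below 0, and those of lidocaine against WT include 0 for the 3 genes that have WT values.

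Lidocaine-treated ganglia were also set against untreated ones, for the 560 genes in both tables. Slc47a1 differed by -0.15 (95% confidence interval -1.10 to 0.80, limma adjusted p = 0.845), Slc6a13 by -0.44 (-1.27 to 0.39, limma adjusted p = 0.384) and Aldh1a2 by 0.08 (-1.11 to 1.28, limma adjusted p = 0.945). None of the 3 passed, the libraries of both groups overlapped in each gene (59.5% of the 560 did not overlap), and the intervals leave room for differences of about 1 in either direction. The sign for Slc47a1 turned to 0.03 without WT replicate 1 and to 0.50 without lidocaine replicate 1, and that for Aldh1a2 to -0.07 without lidocaine replicate 2. Of the 560 genes, 42.5% passed in this comparison, 37.5% as higher and 5.0% as lower in lidocaine, and the median difference was 0.87. These genes are in both tables only because the authors had called each of them in the other 2 comparisons.

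Other genes of the meningeal list moved in the same directions as the 4. Of a list of 33 meningeal symbols, the members included, 14 were listed for IMQ against WT. All 15 gene IDs they cover (Crabp2 has 2) passed as higher, 12 of them not members, beside 58.9% of the table. Their median was 1.77 beside 1.89 over the 2528 higher genes of the table. Of the same 33, 14 were listed for lidocaine against IMQ. All 14 passed as lower, 10 of them not members, beside 87.1% of the table. Their median was -1.61 beside -1.52 over the 702 lower genes. Besides the members, the largest rises were in Slc6a12, the betaine and GABA transporter (3.18, SE 0.64), Slc22a2, the organic cation transporter OCT2 (2.64, SE 0.55), the sulfate transporter Slc13a4 (2.22, SE 0.28), Slc22a8, the organic anion transporter OAT3 (1.84, SE 0.69), the growth factor Bmp6 (1.81, SE 0.34) and the cystine-glutamate exchanger Slc7a11 (1.77, SE 0.43), each with a limma adjusted p of 0.0348 or lower. The call of Slc22a8 was lost without any 1 WT library and without IMQ replicate 1 or 3.

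The largest decreases under lidocaine besides the members were in Slc22a8 (-2.64, SE 0.75), Slc6a12 (-2.02, SE 0.37), Slc22a6, which encodes the organic anion transporter OAT1 (-1.98, SE 0.81), and Slc13a4 (-1.57, SE 0.26), with limma adjusted p of 0.0163, 0.00533, 0.0488 and 0.00453. The level of Slc13a4 was 8.26, 8.13 and 7.74 in WT, 10.60, 9.97 and 10.20 in IMQ, and 8.82 and 8.55 in lidocaine, and each lidocaine library was above each WT library. The call of Slc22a6 was lost with any 1 library left out other than IMQ replicate 2, with a pseudocount of 0.1 and by limma-voom, and its difference ran from -3.03 without lidocaine replicate 2 to -0.93 without lidocaine replicate 1. Without either lidocaine library in turn, 4 of the 14 decreases passed, and without IMQ replicate 3, 9 did. Slc47a1, Slc6a12 and Slc13a4 passed without either, Slc6a13 only without lidocaine replicate 1 and Ptgds only without lidocaine replicate 2.

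**Figure D3:**
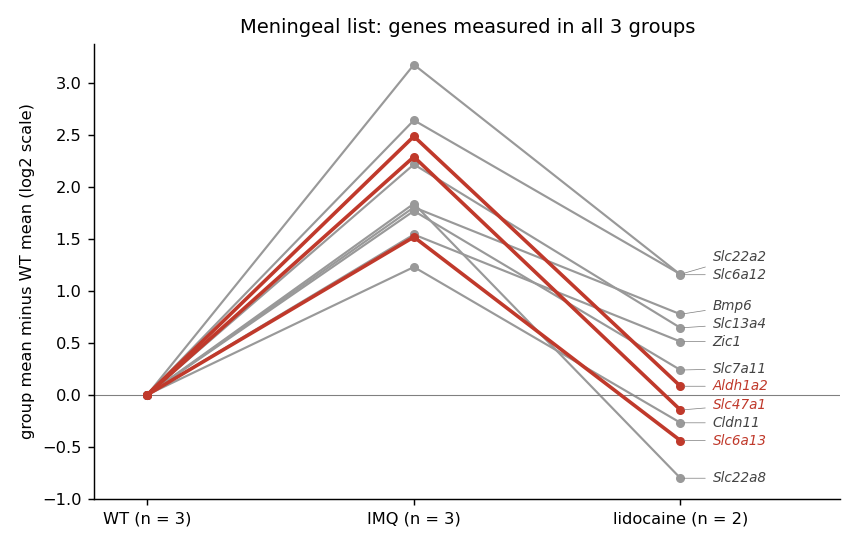
Group means relative to the WT mean on the log2 scale for the 11 meningeal genes present in both tables, with Slc47a1, Slc6a13 and Aldh1a2 in red and the others in grey. All 11 lines rise to IMQ and come down in lidocaine, and the lidocaine means lie between -0.80 (Slc22a8) and 1.16 (Slc22a2 and Slc6a12) of WT. Of the 560 genes in both tables, 496 were called higher with imiquimod and lower with lidocaine. Being in both tables thus largely sets this shape.

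For the 11 meningeal genes in both tables, lidocaine against WT gave 7 higher and 4 lower means, with a median of 0.24. By limma 0 of the 11 passed, beside 42.5% of the 560 genes in both tables. Of the 496 genes called higher with imiquimod and lower with lidocaine, 58.1% did not pass either. Among the 11, 2 had an unadjusted p under 0.05, and limma-voom on recovered reads called 0. With n = 2 lidocaine libraries, a gene that did not pass is not shown to be at its WT level. Without WT replicate 1 or without WT replicate 3, 1 of the 11 passed.

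Within the IMQ group, the meningeal genes shared an order of libraries. IMQ replicate 1 was above replicate 3 and replicate 3 above replicate 2 for 4 of 4 members, and for 9 of the 10 other meningeal genes in the lidocaine table, beside 39.9% of that table. The summed normalized count of those 10 genes was 12896, 6295 and 8729 in the IMQ libraries and 3384 and 3428 in the lidocaine libraries, and that of the 12 others in the first table was 2971 to 3741 in WT. None of these genes was at 0 throughout a group. Genes outside the meningeal list had the order too. It held for 4 of 5 adipocyte markers, whose sums were 1943, 1128 and 1467, for 4 of the 5 prostaglandin genes other than Ptgds, and for 4 of the 4 organic ion transporters other than Slc47a1, 3 of which are meningeal genes as well. The 3 fibroblast markers summed to 34437, 27005 and 30018, in the same order. The order was not general. The 13 macrophage genes listed in the lidocaine table summed to 118160, 148513 and 130492 in IMQ and to 47687 and 55224 in lidocaine, with IMQ replicate 2 the highest, and 2 of the 13 had the order of the members. Among erythroid genes 0 of 11 had it.

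Markers of other cell types moved with the groups as well. The counts below stand beside 58.9% of the table called higher and 37.0% lower with imiquimod. Under lidocaine the shares were 7.48% higher and 87.1% lower. With imiquimod, all 18 macrophage markers listed rose, and their sum went from 14093 to 17096 in WT to 134582 to 165396 in IMQ. All 7 endothelial and mural markers listed rose, with sums of 5666 to 7600 in WT and 15718 to 17958 in IMQ. All 5 listed markers of the spinal cord glia list were higher and 4 passed, with sums of 1625 to 3185 and 10063 to 10379. Of 7 fibroblast markers 4 rose and 3 fell. Of 4 choroid plexus markers listed 3 rose and 1 fell. Of 5 perineurial IDs, the 2 of Crabp2 included, 3 rose and 2 fell. The 2 Schwann and satellite glia markers listed rose, as did the 1 adipocyte marker, and the sensory neuron markers are given above. All 12 muscle markers listed were lower and 11 passed, with sums of 1159 to 6077 in WT and 541 to 738 in IMQ. All 7 erythroid IDs fell, with sums of 141110 to 405759 and 19556 to 79051. Of 14 adipocyte markers 5 were listed in the lidocaine table, all 5 fell, and their sum was 1128 to 1943 in IMQ and 417 to 529 in lidocaine. Of 15 spinal cord glia markers 3 were listed there (Gfap, Mlc1 and Cldn11, the last also a meningeal gene), and their sum was 8697 to 8977 in IMQ and 2835 to 3871 in lidocaine. Mog, Mag, Mobp, Opalin, Olig1 and Olig2 of the same list were not listed there and so have no level in this comparison. Whether spinal cord tissue was present was not tested. Of 20 fibroblast symbols 3 were listed there, with sums of 27005 to 34437 in IMQ and 42189 to 88004 in lidocaine. The matrix protein Postn rose (1.54, SE 0.54), Pi16 fell (-1.69, SE 0.27), and the collagen Col1a1 did not pass (1.01, SE 0.49, limma adjusted p = 0.0828). No marker of these lists was at 0 throughout a group. Of 12 choroid plexus markers 1 was listed in that table and of 12 perineurial markers 1, Kcnj13 (-1.08, SE 0.39) and Krt19 (-1.34, SE 0.40), and both fell (limma adjusted p = 0.0342 and 0.0187). Erythroid genes fell for all 11 IDs listed, with sums of 17241, 67204 and 45339 in IMQ and 3764 and 11253 in lidocaine, and IMQ replicate 1 was their lowest IMQ library in this comparison. Of 16 muscle symbols 1 was listed, Myl1 (-1.85, SE 0.48), and fell, of 15 Schwann and satellite glia symbols 1, Glul (-1.08, SE 0.45), which did not pass (limma adjusted p = 0.0518), and of 18 endothelial and mural symbols 0. The part of these cell types in the result was not tested.

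Retinoid genes around Aldh1a2 changed in both directions with imiquimod. Of 31 symbols of retinoid metabolism and signalling, 14 were listed with 15 gene IDs (median 1.53 beside 1.25 over the table). Of these IDs 11 rose, 3 fell and 1 did not pass, beside 58.9% of the table called higher and 37.0% lower. The largest rise was in Dhrs9, a retinol dehydrogenase, from 7.21, 6.59 and 5.99 in WT to 12.45, 11.21 and 11.78 in IMQ (5.22, SE 0.43, limma adjusted p = 0.000172). Stra6, the membrane receptor that takes up retinol, rose from 7.19 ± 0.15 to 10.60 ± 0.63 (3.41, SE 0.36, limma adjusted p = 0.000397). Both act before Aldh1a2 in the pathway. Lrat, which stores retinol as esters, rose by 2.27 (SE 0.43), the nuclear receptor Rxra by 2.17 (SE 0.44), Cyp26a1, which degrades retinoic acid, by 1.68 (SE 0.41), and the 2 gene IDs of Crabp2, which carries retinoic acid to its receptor, by 1.75 (SE 0.46) and 1.02 (SE 0.36). Reads could be split between these 2 IDs, so their single values are uncertain. The smaller of these rises was lost without WT replicate 1 or 2 and without IMQ replicate 1 or 3, at 0.65 without IMQ replicate 1.

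The intestinal-type retinol-binding protein Rbp2 fell by 2.37 (SE 0.37, limma adjusted p = 0.0018). Aldh1a1, the sister enzyme of Aldh1a2, and the carrier Crabp1 were chosen for mention after their values were seen. The level of Aldh1a1 was 10.26, 10.30 and 10.36 in WT and 8.64, 8.51 and 8.74 in IMQ, a decrease of 1.68 (SE 0.22, limma adjusted p = 0.00106). The libraries of each group were close together, whereas Aldh1a2 ranged over 2.26 among the IMQ libraries. Crabp1 fell by 1.25 (SE 0.46), a call lost without WT replicate 2 or 3, at -0.77 without replicate 3, and without any 1 IMQ library.

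Under lidocaine, 5 of the 31 retinoid symbols were listed and all 5 fell, as did 87.1% of the table, with a median of -1.92, or -1.79 with Rbp7 set at its bound. Beside Aldh1a2, Dhrs9 fell by 1.92 (SE 0.40, limma adjusted p = 0.00715), Dhrs3, which reduces retinaldehyde back to retinol, by 1.06 (SE 0.30, limma adjusted p = 0.0159) and Stra6 by 1.03 (SE 0.38, limma adjusted p = 0.0361). Rbp7, a cellular retinol-binding protein, was at 0 in both lidocaine libraries against 12 to 15 reads in the IMQ libraries, and was at least 3.45-fold lower on the log2(normalized count + 1) scale, against a floor of 3 reads per library. Without lidocaine replicate 1, 1 of the 5 passed, without lidocaine replicate 2, 2 did, and without IMQ replicate 3, 3 did. Stra6 and Dhrs3 missed in each of these cases, and Stra6 also without IMQ replicate 1. Against WT, Dhrs9 and Stra6 were still 3.30 (SE 0.44, limma adjusted p = 0.000359) and 2.38 (SE 0.35, limma adjusted p = 0.000589) higher in lidocaine ganglia, beside the 0.08 of Aldh1a2. Rbp7 went the other way, at 0 in both lidocaine libraries and 3.95, 5.80 and 6.16 in WT. Whether the genes differ from each other in this respect was not tested.

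**Figure D4:**
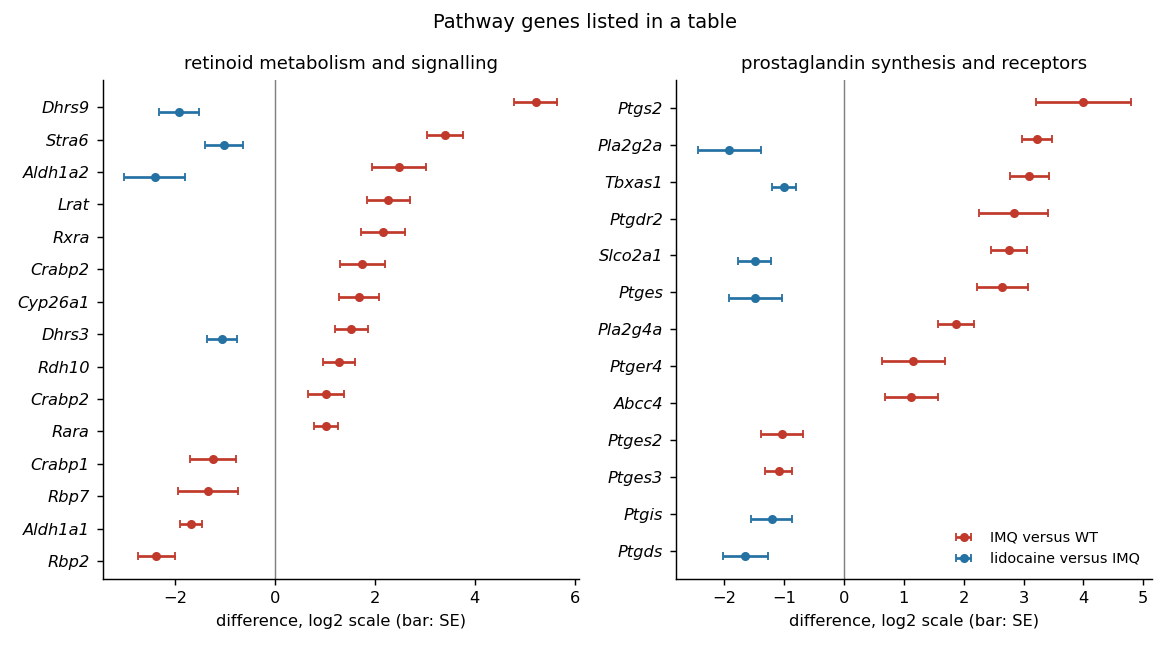
Differences on the log2 scale (points) with their SE (bars) for the retinoid and prostaglandin genes listed in a table, for imiquimod against WT in red and lidocaine against imiquimod in blue. Dhrs9, Stra6 and Aldh1a2 stand highest among the red points of the retinoid panel, with Aldh1a1 and Rbp2 at the low end, every blue point is below 0, and Rbp7 under lidocaine is left out because it was at 0 in both lidocaine libraries.

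Prostaglandin genes around Ptgds included rises and decreases with imiquimod. Of 25 symbols 11 were listed for IMQ against WT, and 8 rose, 2 fell and 1 did not pass, beside 58.9% higher and 37.0% lower in the whole table, and the median of the 11 was 2.64 beside 1.25. Ptgs2, the inducible cyclooxygenase, rose by 4.00 (SE 0.79), the secreted phospholipase Pla2g2a by 3.22 (SE 0.24), the thromboxane synthase Tbxas1 by 3.10 (SE 0.32), the prostaglandin carrier Slco2a1 by 2.75 (SE 0.30), the prostaglandin E synthase Ptges by 2.65 (SE 0.43) and the cytosolic phospholipase Pla2g4a by 1.87 (SE 0.30), each with a limma adjusted p of 0.00465 or lower. The prostaglandin D2 receptor Ptgdr2 passed at very low levels, 0, 1.69 and 0 in WT and 3.83, 2.95 and 3.41 in IMQ (limma adjusted p = 0.00509). Ptges3 and Ptges2, which also make prostaglandin E2 and were named after their values were seen, fell by 1.09 (SE 0.23) and 1.03 (SE 0.35). The receptor Ptger4 was at 6.94 ± 1.07 in WT and 8.10 ± 0.11 in IMQ and did not pass (limma adjusted p = 0.0626), and its difference of 1.16 was 0.55 without WT replicate 3. The call of Ptges2 was lost without WT replicate 2 and without any 1 IMQ library.

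Of the 25 symbols, 6 were listed for lidocaine against IMQ, and all 6 fell, beside 87.1% of the table, with a median of -1.48 beside -1.52 over its lower genes. Beside Ptgds they were Pla2g2a (-1.92, SE 0.53), Slco2a1 (-1.49, SE 0.28), Ptges (-1.48, SE 0.45), the prostacyclin synthase Ptgis (-1.20, SE 0.34) and Tbxas1, which went from 9.26 ± 0.10 to 8.25 ± 0.06 (SD, n = 3 and 2), with limma adjusted p of 0.0202 or lower. Ptgds and Ptgis alone among the 6 were not listed for IMQ against WT. Without lidocaine replicate 1, 3 of the 6 passed, and without lidocaine replicate 2, 4 did. Pla2g2a passed in both cases but ran from -2.87 without lidocaine replicate 2 to -0.96 without lidocaine replicate 1. The Ptgds receptor genes Ptgdr and Ptgdr2 were not in the lidocaine table.

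Transporters related to Slc6a13 and Slc47a1 are read against the same shares, 58.9% of the table higher with imiquimod and 87.1% lower under lidocaine. Of 24 symbols of GABA and taurine handling 7 were listed for IMQ against WT and all rose (median 1.90), among them Slc6a12, the GABA transporter Slc6a11 (1.90, SE 0.72), the taurine transporter Slc6a6 (2.73, SE 0.69), and the GABA-A receptor subunits Gabrb1 (2.16, SE 0.68) and Gabra5 (1.03, SE 0.31). The call of Slc6a11 was lost without WT replicate 2 or 3, where its difference was 1.09 without replicate 3, and without any 1 IMQ library. That of Gabra5 was lost without WT replicate 2 and without IMQ replicate 1 or 3. That of Gabrb1 was lost without IMQ replicate 2 and with a pseudocount of 0.1, and its difference was 1.43 without WT replicate 2. Under lidocaine 3 were listed and all fell (median -1.96), Slc6a13 and Slc6a12 among them. Without lidocaine replicate 1, 2 of the 3 passed, and without lidocaine replicate 2, 1 did. Slc6a12 is the gene next to Slc6a13 in RefSeq's GRCr8 annotation, and its level was 3.04, 2.23 and 4.65 in WT, 6.92, 6.35 and 6.18 in IMQ, and 4.61 and 4.32 in lidocaine. The protein-coding gene on the other side, the interferon-induced protease Usp18, rose with imiquimod (3.46, SE 0.38, limma adjusted p = 0.000476) and was not in the lidocaine table. Slc47a2, the paralog next to Slc47a1, was in neither table. Rnf112, the protein-coding gene on its other side, fell with imiquimod (-1.49, SE 0.22, limma adjusted p = 0.00159). Of the genes beside Aldh1a2, Aqp9 rose (1.25, SE 0.45, limma adjusted p = 0.0308) while Polr2m and both genes beside Ptgds (Paxx and Lcn12) were in neither table.

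Of 25 organic cation and anion transporters 9 were listed for IMQ against WT and all rose (median 1.79). Beside Slc47a1, Slc22a2 and Slc22a8 they included Slco4a1 (1.89, SE 0.49), Slc22a18 (1.79, SE 0.39), the drug exporter Abcb1a (1.75, SE 0.23), Slco2b1 (1.34, SE 0.24) and the carnitine transporter Slc22a5 (1.27, SE 0.35). Under lidocaine 5 were listed and all fell (median -1.98), with Slco4a1 at -1.47 (SE 0.58, limma adjusted p = 0.0441) beside the Slc22 genes named above and Slc47a1. With either lidocaine library left out 1 of the 5 passed, which was Slc47a1, and without IMQ replicate 1 or 3, 2 did. By limma-voom on recovered reads 3 of the 5 passed.

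The genes with the profiles most like each member were ranked by the root mean square difference of centred log2 levels over the libraries, among named genes whose normalized counts averaged 50 or more. Over 8 libraries and 327 genes, Slc6a13 was nearest to Lsr, a protein of tricellular junctions (0.22), to Cldn11, a tight-junction claudin of the meningeal list (0.23), and to the collagenase Mmp8 (0.24). Aldh1a2 was nearest to the uroplakin Upk1b (0.29), Serpinb10 (0.38) and cochlin, Coch (0.38). Slc47a1 had no neighbour as close, with the transcription factor Fosl2 at 0.48, Rassf2 at 0.50 and the protease Ctse at 0.52. The members were not each other's closest. For Slc47a1, Aldh1a2 was at place 13 and Slc6a13 at place 63, and for Aldh1a2, Slc6a13 was at place 18 and Slc47a1 at place 19. For Slc6a13, Aldh1a2 was at place 72 and Slc47a1 at place 106.

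Over the 5 libraries of the lidocaine table and 426 genes, Ptgds was nearest to complement C3 (0.11), the metallothionein Mt1m (0.12) and Tmem252 (0.12). C3 and Mt1m both rose with imiquimod (7.27, SE 0.37, and 3.84, SE 0.45) and were still 5.49 (SE 0.41) and 2.23 (SE 0.46) above WT in lidocaine ganglia (limma adjusted p = 2.49e-05 and 0.00344). Tmem252 rose less with imiquimod (1.06, SE 0.32). In lidocaine ganglia it differed from WT by -0.54 (SE 0.33, limma adjusted p = 0.222). These neighbours give no WT level for Ptgds. Slc6a13 was nearest to Fabp4, a fatty-acid carrier of fat cells (0.17), Defa5 (0.19) and the lectin Clec4e (0.19), Aldh1a2 to myeloperoxidase, Mpo (0.17), Wfikkn2 (0.19) and Upk1b (0.19), and Slc47a1 to the myeloid receptor Trem1, the T cell receptor Icos and the matrix protein Cilp (0.27 each). Upk1b was among the 3 nearest genes of Aldh1a2 in both rankings, while no gene was among the 3 nearest of Slc47a1, or of Slc6a13, in both. Over the 5 libraries, for Ptgds, Slc6a13 was at place 189, Slc47a1 at place 252 and Aldh1a2 at place 356. Ptgds itself was at place 23 for Slc47a1, 59 for Slc6a13 and 54 for Aldh1a2.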

How the data were processed

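Total RNA was isolated with TRIzol and sequenced on an Illumina protocol, per the labels' protocols. Of tools, bcl2fastq, STAR 2.5.3a and DESeq2 appear in the submitters' processing notes, with no roles. Genome build, annotation, counter and strandedness: not given in the sources used here. The deposited tables hold log2 values, log2(normalized count + 1), as read from the values: on the linear scale 100% of those up to 2000 reads were a whole number of times the library's smallest step (tolerance 0.02 reads). The inverse of the step gave relative depth. The largest gap between the tables' IMQ values was 4.98e-09.

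Each comparison was tested with limma 3.58.1 (R 4.3.3), with a mean-variance trend, two-sided, over all genes of a table with a mean normalized count of at least 1, and Benjamini-Hochberg adjustment with a threshold of 0.05. Lidocaine against WT used 1 fit of the 3 groups over the 560 genes in both tables. Fits were also run on simulated data in which most genes were unchanged. The genes here are a selection of called ones, so that run does not test these calls. Because the authors had already selected the listed genes, a p-value shows only whether the libraries of a group stayed together.

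The members, 16 gene lists and the rules were chosen with earlier results of these data known. Named genes are the members, the 3 nearest profiles per member in each set of libraries, and list genes (all where 8 or fewer were listed, otherwise the 8 largest differences), with a few exceptions in small counts. Alternatives were pseudocounts of 0.1 and 10, filters, an adjusted p under 0.01, named genes only, a replicate block, limma-voom on recovered reads, 1 fit over 3 groups, and each library left out in turn. With 1 lidocaine library left, that library was assumed to vary like the others. A listed gene that the rule would name is not reported here.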

Additional observations from a re-analysis of the deposited data

How the results depend on the processing

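The rises of Slc47a1, Slc6a13 and Aldh1a2 with imiquimod kept their direction and stayed past the threshold under every alternative run, with 1 library left out at 2.00 to 2.46, 1.23 to 1.82 and 1.94 to 3.07. Under lidocaine the ranges with 1 library left out were -3.09 to -1.79 for Slc47a1, -2.27 to -1.68 for Slc6a13, -2.02 to -1.28 for Ptgds and -2.98 to -1.85 for Aldh1a2, and the calls lost there are given above. Aldh1a2 (-2.41, adjusted p = 0.0119) missed an adjusted p of 0.01, and Ptgds missed 0.05 with the replicate number as a block (-1.68, adjusted p = 0.0527). The block changed no other member's call, and 3 of the 5 retinoid decreases passed with it. Same-numbered libraries of WT and IMQ did not deviate together (correlations across genes of -0.159, -0.058 and -0.118), nor did those of IMQ and lidocaine (0.0163 and 0.044). These values cannot settle whether the numbers pair the samples. Deviations in groups this small depend on each other, and those of the 2 lidocaine libraries mirror each other. Against WT, lidocaine differences with 1 library left out ran from -0.80 to 0.50 for Slc47a1, -0.64 to -0.28 for Slc6a13 and -0.07 to 0.24 for Aldh1a2, which turned to -0.0726 without lidocaine replicate 2.

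Over whole tables, an adjusted p under 0.01 left 1276 higher and 619 lower genes for IMQ against WT, and 18 and 336 for lidocaine against IMQ. The fit over 3 groups on fewer genes called 509 and 39, and 18 higher genes under lidocaine. A mean of at least 50 left 12 and 441 under lidocaine, and the block 37 higher. With 1 library left out, IMQ against WT gave 1563 to 2397 higher and 869 to 1552 lower genes, and lidocaine against IMQ 23 to 50 and 364 to 644. By limma-voom on recovered reads the counts were 2474 and 1501 for IMQ against WT and 63 and 663 under lidocaine. For the other named genes, 1259 of 1419 results of alternatives kept their call and direction, 156 lost it, 4 gained it and 0 reversed.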
